A study of Mus musculus with 4 samples.

Results

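Imprinted genes were followed in mouse cells that the sample titles name endothelial cells made from induced pluripotent stem cells (iPSCs). An iPSC is a body cell turned back to a state like that of the early embryo. The set held 50 named genes, sorted by imprinted locus, and a probe set was taken where the platform annotation gave its symbol. Of the 50 genes, 46 had a probe set that named them alone, among 18193 genes measured in this way. H19 had only a probe set shared with the microRNA gene Mir675, and 3 genes, Rtl1, Slc22a3 and Zrsr1, had none in the annotation used here. Together, 120 probe sets named a member alone and 9 named a member together with another gene. There were 2 groups, healthy controls and animals made obese by diet (DIO), each of 2 mice with 1 array per mouse and a labelled age of 24 weeks. The labels used here give no strain, diet, donor tissue or reprogramming method. The titles call the cells iPSC-derived endothelial cells while the cell type entry reads iPSC. Nothing says how many lines each mouse gave, so the p-values rest on the spread among 4 samples, which may be partly technical.

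An imprinted gene is read mainly from the allele inherited from one parent, which is set by DNA methylation laid down in the egg or sperm. Imprinted genes lie in clusters under a shared control region, and within a cluster some are read from the maternal and others from the paternal copy, often with a long noncoding RNA that silences its neighbours on the same chromosome. Many of them control growth of the fetus and placenta. Such methylation marks can be lost or gained when cells are reprogrammed, and the noncoding RNAs beside Dlk1 are a known case in mouse iPSCs. The arrays measure the RNA of a gene from both alleles together, and methylation was not measured, so no imprint was read here. Several genes listed as imprinted are so only in placenta or brain.

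Values are log2 expression levels of the brightest probe set of a gene. They are always given in the order control 1, control 2, DIO 1 and DIO 2. Other than for the marker lists below, a level of a probe set is compared between arrays only. There are no detection calls, so a dim level may be background. Medians over all probe sets were between 5.61 and 5.65 on the 4 arrays. The 19 endothelial markers averaged 5.96, 6.17, 5.91 and 5.81 and differed in order. Cdh5 was highest in DIO 2, at 8.37, 8.87, 8.48 and 9.34, while Pecam1 and Tek were lowest there, at 7.34, 6.83, 7.20 and 6.05 and at 5.05, 6.69, 4.87 and 4.21. The 14 pluripotency markers averaged 10.15, 9.33, 10.58 and 9.60. On every array the endothelial average lay below the median of gene means, 7.09, and the pluripotency average above it. Probe sets differ in brightness, so this does not settle the cell type, and the name endothelial rests on the titles. The 15 epidermal and epithelial markers averaged 8.74, 11.99, 9.43 and 9.96. Control 2 was the highest array for 11 of these 15 and the lowest for 2, as for Krt18 at 13.91, 13.71, 13.89 and 13.86. It also had the highest mean of the yolk sac and visceral endoderm markers, at 5.31, 6.65, 5.75 and 6.06. The probe sets for 18S ribosomal RNA averaged 12.60, 12.65, 12.30 and 11.96, lower in both DIO arrays. The part of these differences in the results below was not tested.

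The comparison of DIO with control asked which imprinted genes differ between cells from obese and healthy animals. Of the 46 members 0 passed (limma, smallest adjusted p = 0.728), and over all genes 0% did. At an unadjusted p below 0.05 there were 5 members (6.58% of all genes). Sgce, Plagl1, Kcnq1ot1 and Nnat had lower DIO means, where 3.32% of all genes were called lower, and Grb10 had a higher DIO mean, where 3.26% were called higher. Over the members the median difference, DIO mean minus control mean, was −0.013, with 22 higher (53.3% of all genes) and 24 lower, beside a median of 0.017 over all genes. Without control 2 the members' median was −0.12, beside −0.033 over all genes. With 2 arrays a group the 95% confidence interval of a gene typically reached 0.46 to either side, and an exact 2-sided permutation test of 2 against 2 cannot give a p under 0.333. In RNA of whole cultures, fewer cells of a type and less RNA per cell cannot be told apart.

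Both DIO arrays lay below both controls for 14 members (17% of all genes) and above both for 3 (21.4% of all genes), together 17 of 46 where all genes gave 38.4%. After quantile normalization 12 lay below (15.4% of all genes) and 6 above, where all genes gave 39.6% on either side. After centring each array on its median 13 lay below (14.4% of all genes) and 6 above, where all genes gave 39.5% on either side. The members were also sorted by the allele they are known to be read from, for several only in certain tissues. The allele read in these cells was not measured. Of 22 paternally expressed members, 11 had both DIO arrays below both controls and in 1, Magel2, they lay higher. Of 23 maternally expressed members, 3 lay below and 2 above. The median difference was −0.30 for the paternally expressed members, between −0.34 and −0.20 when 1 array was left out and −0.17 when the probe sets of a gene were averaged. It was 0.07 for the maternally expressed ones, which was −0.0058 without control 2. Neighbours in 1 cluster are not independent, the grouping by allele was made with earlier results of these data known, and its difference was not tested. The levels of 18S ribosomal RNA given above separated the groups in the same way.

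**Figure D1:**
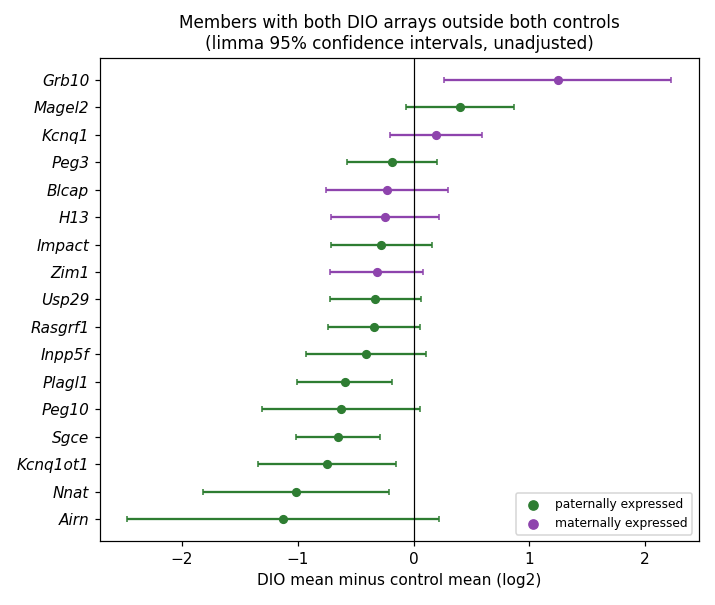
Difference between the DIO and control means (log2, x axis) with its limma 95% confidence interval for the 17 imprinted genes whose DIO arrays both lay outside both controls, coloured by the allele the gene is known to be read from. The lowest are Airn at −1.13 and Nnat at −1.01, the highest is Grb10 at 1.25, and 14 of the 17 lie below 0.

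The spread over the 4 arrays was also read without regard to group. The range over the 4 arrays was 1 log2 unit or more for 12 of 46 members, against 9.79% of all genes. Among genes above the median level it was so for 9 of 29 members, against 10.2%. Control 2 was the highest array for 13 of the 46 members (21% of all genes) and the lowest for 14 (41.1%). It stood at an end in most of the 12, and without control 2 only 4 members had such a range, where all genes gave 3.20%. The median range was 0.50 for members and 0.43 for all genes. A single array stood 1 unit or more from its nearest neighbour for 6 members (4.05% of all genes). In 5 of these it was control 2, high for Tnfrsf23, Airn and Dlk1 (3.45% of all genes) and low for Ascl2 and Slc22a18 (0.302% of all genes). The sixth was Mest, low in DIO 1 (0.033% of all genes). Among the 3 arrays that remain without control 2, such a gap was left for 2 members (1.37% of all genes).

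**Figure D2:**
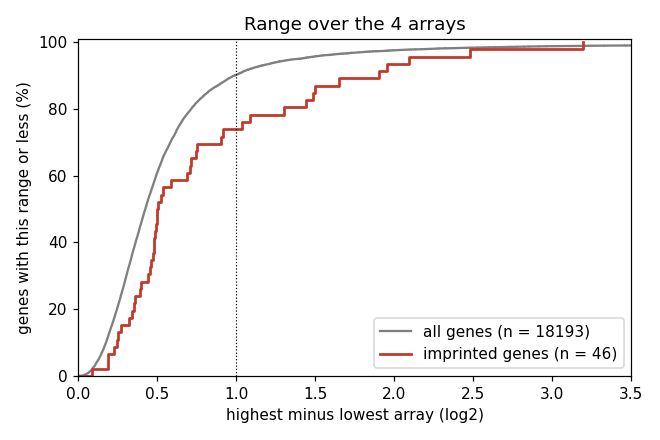
Cumulative share of genes (y axis, percent) by the range between the highest and lowest of the 4 arrays (x axis, log2) for 18193 genes and for the 46 imprinted genes, with a dotted line at 1. The curve of the imprinted genes lies to the right at 1 log2 unit, which 12 of 46 members reach.

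**Figure D3:**
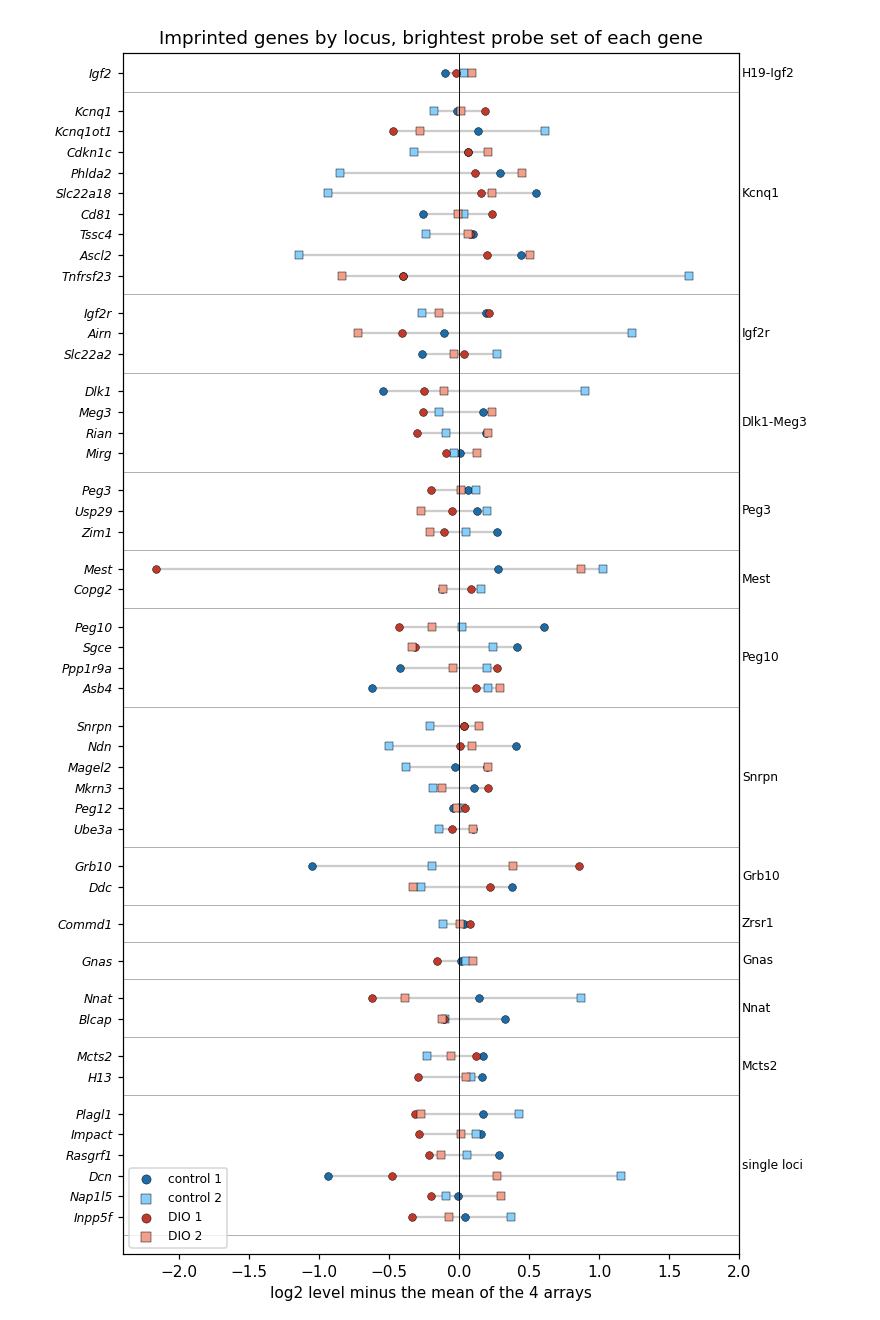
Each of the 46 imprinted genes (rows, sorted by locus) with its level on each array minus its mean over the 4 arrays (x axis, log2), in blue for controls and red for DIO. Mest on DIO 1 lies farthest to the left, and control 2 lies at an end of the row for Ascl2, Phlda2, Slc22a18, Tnfrsf23, Airn and Dlk1.

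Mest, a paternally expressed hydrolase gene tied to growth of fetal tissue, was at 9.44, 10.18, 6.99 and 10.03. DIO 1 was the low array, 2.45 below the nearest of the others, while DIO 2 lay between the controls, so the groups overlapped. Of the 6 genes on the arrays with DIO 1 apart on the low side by 1 unit or more, Mest had the widest gap. The next were Ctsq, a placental cathepsin, at 1.31 and Prl4a1, a placental gene of the prolactin family, at 1.29. Both are named here because of these ranks. The 10 measured trophoblast and placental markers, with Ctsq among them, averaged 8.86, 8.63, 8.87 and 9.29, so their mean was not low in DIO 1. Whether placental genes have a part in the low Mest value was not tested. Copg2, a coat protein gene that overlaps the end of Mest on the other strand, was at 9.07, 9.34, 9.28 and 9.07 and thus did not follow it. Mest has 1 probe set, so no other measurement on these arrays bears on the low value.

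The start regions of Mest, leaving out a window that overlaps the downstream one almost wholly, are shown because the gene's level set 1 DIO array apart. Each window runs from 250 bases before to 50 after a start in RefSeq (GRCm38.p6), 5′ to 3′ along the gene, with CpG dinucleotides, the sites that carry methylation, in capitals. The upstream window, chr6:30733256-30733555 on the plus strand, holds 8 CpGs. The downstream window, chr6:30737800-30738099, also on the plus strand, holds 17 CpGs and 2 matches on the reverse strand to TGCCGC, the hexamer read by the imprint-protecting factor Zfp57 when methylated.
Mest upstream: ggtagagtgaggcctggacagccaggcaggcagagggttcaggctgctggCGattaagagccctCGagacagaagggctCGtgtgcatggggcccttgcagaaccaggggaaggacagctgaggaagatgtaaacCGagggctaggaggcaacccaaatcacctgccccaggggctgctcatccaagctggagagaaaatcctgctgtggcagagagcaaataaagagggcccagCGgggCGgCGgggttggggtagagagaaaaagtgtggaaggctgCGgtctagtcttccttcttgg
Mest downstream: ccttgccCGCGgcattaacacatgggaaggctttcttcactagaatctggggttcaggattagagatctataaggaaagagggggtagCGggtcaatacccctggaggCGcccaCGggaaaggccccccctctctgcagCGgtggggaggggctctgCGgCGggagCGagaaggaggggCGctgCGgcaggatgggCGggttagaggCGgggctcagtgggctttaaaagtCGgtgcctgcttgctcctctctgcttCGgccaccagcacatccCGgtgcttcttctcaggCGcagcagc
Of 32851 windows of all genes, 11.6% held that hexamer on either strand. Of 59 windows of 42 members, counted without 1 chromosome that the windows of all genes include, 14 did. The median window held 7 CpGs over all genes and 14 over members. A match describes the letters and is no measured binding.

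The Peg10 locus holds the paternally expressed neighbours Peg10 and Sgce, which start side by side and run in opposite directions, and 2 maternally expressed genes. Sgce, the sarcoglycan of the membrane complex, was at 11.29, 11.12, 10.56 and 10.54. Both DIO arrays lay below both controls, with a difference of −0.65 ± 0.13 (SE, n = 2 and 2; limma, unadjusted p = 0.00736, adjusted p = 0.728). Its other probe set was at 7.07, 6.93, 5.91 and 5.77, a difference of −1.16, with an adjusted p of 0.531 by limma over all probe sets. Peg10, a retrotransposon-derived gene needed for the placenta, was at 10.58, 10.00, 9.55 and 9.78. It also lay lower in both DIO arrays, by −0.63 ± 0.25 (limma, adjusted p = 0.728), and by −0.33 without control 1. The maternally expressed members did not share this pattern. Ppp1r9a, a neural actin-binding scaffold, was at 7.12, 7.74, 7.81 and 7.50, and Asb4, an adaptor of ubiquitin ligases, at 4.03, 4.87, 4.78 and 4.95, with control 1 the low array for both.

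Plagl1, a paternally expressed zinc finger factor that restrains growth and regulates other imprinted genes, was at 13.54, 13.80, 13.06 and 13.10. The groups did not overlap, and the difference was −0.59 ± 0.15 (limma, unadjusted p = 0.0157, adjusted p = 0.728). The brightest probe set belongs to a class whose probes can match other transcripts, and its level was near the top of the scale. The other 2 probe sets of Plagl1 had wider gaps. Levels of 8.93, 9.23, 7.52 and 7.28 gave −1.68, and 8.64, 9.20, 7.64 and 7.60 gave −1.30 (limma over all probe sets, adjusted p = 0.531 for each). All 3 probe sets of the gene thus had both DIO arrays below both controls. Its start window, chr10:13090582-13090881 on the plus strand, holds 26 CpGs and 1 reverse match to TGCCGC, and is shown because all probe sets of the gene separated the groups in the same direction.
Plagl1: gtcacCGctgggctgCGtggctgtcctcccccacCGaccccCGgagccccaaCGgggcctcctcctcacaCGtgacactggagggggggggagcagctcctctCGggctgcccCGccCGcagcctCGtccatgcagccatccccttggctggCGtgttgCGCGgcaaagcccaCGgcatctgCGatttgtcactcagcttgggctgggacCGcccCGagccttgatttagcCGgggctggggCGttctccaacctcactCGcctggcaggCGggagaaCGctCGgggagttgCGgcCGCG

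Grb10, a maternally expressed adaptor that dampens insulin and IGF receptor signalling and limits growth, was at 9.52, 10.37, 11.43 and 10.95. The DIO arrays were the upper pair, by 1.25 ± 0.36, the highest difference among the members (limma, unadjusted p = 0.0238, adjusted p = 0.728, 95% interval 0.27 to 2.23). It was 0.82 without control 1 and 1.67 without control 2. The other probe sets of Grb10 disagreed. One was at 5.03, 5.22, 5.74 and 5.36, a difference of 0.43, and one at 6.62, 6.58, 6.40 and 5.88, a difference of −0.46 with both DIO arrays below. Ddc, its neighbour that makes dopamine and serotonin, was at 7.79, 7.14, 7.63 and 7.08, with overlapping groups. The more CpG-rich of the 2 Grb10 start windows, chr11:12037371-12037670 on the minus strand, is shown as that of the member with the highest difference, and holds 45 CpGs, more than 98.1% of all windows.
Grb10: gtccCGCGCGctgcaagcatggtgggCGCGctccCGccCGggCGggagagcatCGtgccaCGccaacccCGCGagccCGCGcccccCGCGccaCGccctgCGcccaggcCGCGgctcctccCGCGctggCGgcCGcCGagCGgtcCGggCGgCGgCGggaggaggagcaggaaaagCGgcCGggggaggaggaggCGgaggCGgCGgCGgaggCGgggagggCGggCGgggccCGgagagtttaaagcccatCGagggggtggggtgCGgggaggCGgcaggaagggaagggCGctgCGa

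**Figure D4:**
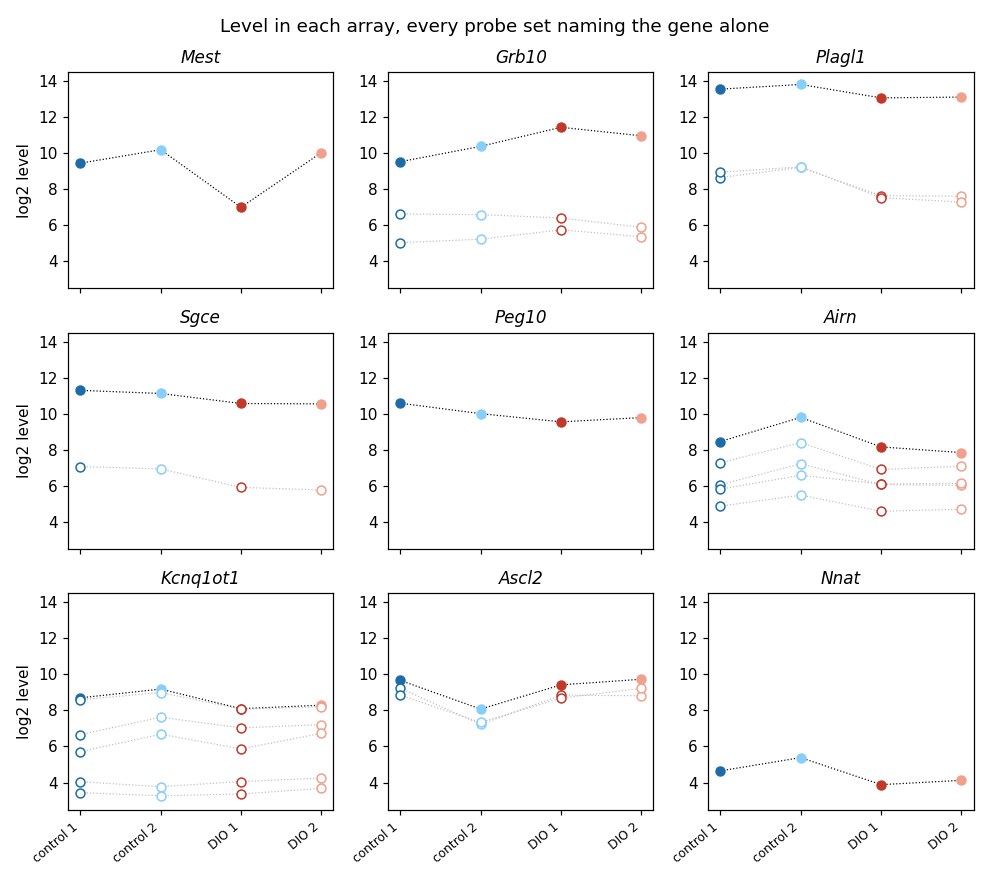
Level (y axis, log2) of 9 imprinted genes on each of the 4 arrays (x axis), with filled points for the brightest probe set and open points for the gene's other probe sets. Dotted lines join the points of 1 probe set. Mest is low on DIO 1, all probe sets of Plagl1 and Sgce are lower on both DIO arrays, and those of Airn are highest and of Ascl2 lowest on control 2.

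In the Kcnq1 domain the paternally expressed noncoding RNA Kcnq1ot1 silences a row of maternally expressed genes. Control 2 had the lowest level in 6 of its 9 members, where all genes gave 41.1%. Ascl2, a transcription factor of the placenta's spongy layer, was at 9.66, 8.07, 9.42 and 9.73, and its other 2 probe sets were lowest in control 2 as well. Phlda2, which limits placental growth, was at 13.09, 11.94, 12.91 and 13.25. Slc22a18, a membrane transporter, was at 8.96, 7.48, 8.57 and 8.65. For these 3 genes control 1 lay beside the DIO arrays. In the same cells the trophoblast list was lowest in control 2 for 7 of 10 markers and highest there for 2. This was not particular to that list, as 12 of 14 pluripotency markers were lowest in control 2 too. The part of either list in these values was not tested.

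Cdkn1c, an inhibitor of cyclin-dependent kinases, followed the same order more weakly at 13.59, 13.20, 13.59 and 13.73. Tssc4 was at 8.95, 8.61, 8.93 and 8.92, again low in control 2. Kcnq1, a potassium channel, was at 5.68, 5.52, 5.88 and 5.71. Its DIO arrays both lay above the controls, by 0.19 ± 0.14 (limma, adjusted p = 0.789). Cd81, a tetraspanin, was at 11.93, 12.22, 12.42 and 12.18. Tnfrsf23, a decoy receptor at the far end of the domain, went the other way at 6.19, 8.24, 6.19 and 5.76, high in control 2, and a probe set annotated to both it and its neighbour Tnfrsf22 did so too at 7.34, 10.04, 7.80 and 7.72. Without control 1 the differences of Tnfrsf23 and Slc22a18 were −2.26 and 1.13 (limma, adjusted p = 0.0331 and 0.0498). That fit sets the DIO pair against control 2 alone, the array that stands apart. It takes the spread from the DIO pair and assumes that the lone control varies likewise, and 2.65% of all genes passed in it.

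Kcnq1ot1 itself was at 8.69, 9.18, 8.09 and 8.29 in its brightest probe set, a difference of −0.75 ± 0.22 (limma, unadjusted p = 0.0247, adjusted p = 0.728). A second probe set gave the same order at 8.59, 8.99, 8.07 and 8.20. Of its other 4 probe sets along this long RNA, 1 differed by −0.02 and 3 had a higher DIO mean, by 0.10 to 0.24. Lower DIO levels were thus seen in only part of the probe sets. In 3 of the 6 the highest array was control 2.

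At the Igf2r locus the paternally expressed noncoding RNA Airn is transcribed against Igf2r, the receptor that clears Igf2. Airn was at 8.46, 9.79, 8.16 and 7.84. Control 2 was the high array by 1.34, and all 5 of its probe sets were highest there. The group difference was −1.13 ± 0.49 (limma, adjusted p = 0.730). It was −0.46 without control 2, and −1.80 without control 1 (limma, adjusted p = 0.0365), again against control 2 alone with the spread of the DIO pair, where 2.65% of all genes passed. Igf2r was at 11.86, 11.40, 11.88 and 11.52, lowest in control 2 but close to DIO 2. Its other probe set was at 10.58, 9.90, 10.67 and 10.48, with control 2 apart on the low side by 0.59. Slc22a2, a cation transporter imprinted in placenta, was at 3.91, 4.44, 4.20 and 4.14. A probe set annotated to both Airn and Igf2r was at 4.54, 4.72, 5.04 and 4.97, an order unlike that of Airn. The Airn start window, chr17:12741061-12741360 on the plus strand, holds only 3 CpGs and no TGCCGC. It is shown as having the fewest CpGs of the windows given here. The upstream Mest window lacks that hexamer too.
Airn: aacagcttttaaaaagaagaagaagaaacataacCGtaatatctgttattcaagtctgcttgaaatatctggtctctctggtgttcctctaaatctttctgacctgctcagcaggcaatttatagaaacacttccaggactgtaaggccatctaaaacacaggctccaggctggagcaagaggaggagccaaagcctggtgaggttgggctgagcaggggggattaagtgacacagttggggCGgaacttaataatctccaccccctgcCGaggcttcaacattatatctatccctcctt

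At the Dlk1-Meg3 locus the noncoding RNAs are read from the maternal and Dlk1 from the paternal copy. Dlk1, a Notch-like membrane protein that keeps precursor cells undifferentiated, was at 8.24, 9.68, 8.53 and 8.68, high in control 2 by 1.01. Its other probe set was at 4.32, 4.39, 4.32 and 4.52. Meg3, whose loss marks silencing of the locus in mouse iPSCs, had 11 probe sets with levels between 3.76 and 7.00 and a widest range of 0.78 over the arrays. The brightest was at 6.94, 6.62, 6.51 and 7.00. Rian, which hosts small nucleolar RNAs, was at 6.29, 6.01, 5.80 and 6.30, and Mirg, which hosts microRNAs, at 4.47, 4.15, 3.94 and 4.57 in the probe set that ranged most. In the probe sets whose levels are given for these 3 RNAs the groups overlapped. Over all 11 probe sets of Meg3 both DIO arrays lay below both controls in 4 and above in 3, so they disagreed in direction, and in 1 of 4 of Rian they lay above. No array stood apart by 1 unit in any probe set of the 3 RNAs. Whether these RNAs were expressed at all cannot be read without detection calls.

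At the H19-Igf2 locus the groups overlapped in every probe set. Igf2, the fetal growth factor, was at 13.91, 14.05, 13.99 and 14.10, and its second probe set was at 8.60, 9.03, 8.71 and 8.86. The probe set annotated to H19 and to Mir675, which lies within it, was at 13.80, 13.29, 13.49 and 13.55 and cannot be assigned to either alone. The range was 0.19 and 0.44 for the probe sets of Igf2 and 0.51 for the joint one, beside a median of 0.43 over all genes. The bright Igf2 and joint levels lay close to the top of the scale, 14.56, where differences may be compressed.

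All 3 measured members of the Peg3 locus lay lower in both DIO arrays, by small amounts, as did 17% of all genes. As neighbours in 1 cluster they are not independent. Peg3, a zinc finger factor of cell survival and maternal behaviour, was at 13.34, 13.40, 13.07 and 13.28, a difference of −0.19 ± 0.14 (limma, adjusted p = 0.789). Usp29, a deubiquitinase that starts beside it, was at 5.08, 5.14, 4.89 and 4.67, a difference of −0.33 ± 0.14 (limma, adjusted p = 0.730). Zim1, the maternally expressed zinc finger gene next to them, was at 7.18, 6.95, 6.80 and 6.70, a difference of −0.32 ± 0.15 (limma, adjusted p = 0.735). Of the other 4 probe sets of Peg3, 2 were also lower in both DIO arrays, with differences of −0.24 and −0.48, and the 2 dimmest showed no separation.

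The human counterpart of the Snrpn locus is the region whose loss causes Prader-Willi syndrome. Snrpn, a splicing protein, shares 6 probe sets with its upstream reading frame Snurf. The brightest of these was at 10.72, 10.57, 10.61 and 10.65, a range of 0.15, while another ranged by 0.90, and the probe set of Snrpn alone was at 5.99, 5.74, 5.99 and 6.10. Ndn, a growth suppressor, was at 8.77, 7.86, 8.36 and 8.45, and 6 of its 8 probe sets were lowest in control 2. Magel2, a regulator of protein sorting, was at 4.48, 4.13, 4.70 and 4.72, where both DIO arrays lay above both controls by 0.40 ± 0.17 (limma, adjusted p = 0.728). Mkrn3, which restrains puberty, was at 4.92, 4.63, 5.03 and 4.70, and Peg12 at 3.16, 3.22, 3.25 and 3.19. Ube3a, a ubiquitin ligase read from the maternal copy in neurons, was at 11.62, 11.38, 11.47 and 11.62. Control 2 was lowest in 5 of the 6 members, where all genes gave 41.1%, and only narrowly so for Mkrn3 and Ube3a.

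Nnat, a paternally expressed membrane proteolipid inside an intron of Blcap, was at 4.64, 5.38, 3.88 and 4.12. Both DIO arrays lay below both controls, by −1.01 ± 0.29 (limma, unadjusted p = 0.0247, adjusted p = 0.728). It was −0.64 without control 2 and −1.38 without control 1 (limma, adjusted p = 0.0492), the latter against control 2 alone with the spread of the DIO pair, where 2.65% of all genes passed. These are low levels. Blcap, an apoptosis-related gene, was at 10.72, 10.29, 10.28 and 10.27. It had a difference of −0.23 ± 0.19 (limma, adjusted p = 0.811), which came from control 1 and was −0.013 without it.

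A similar nested pair is Mcts2, a retrotransposed gene within an intron of H13. H13, a signal peptide peptidase, was at 9.97, 9.89, 9.51 and 9.85, a difference of −0.25 ± 0.17 (limma, adjusted p = 0.778). Of its 6 probe sets, 3 had both DIO arrays below both controls and 3 had a higher DIO mean, by 0.04 to 0.10. Mcts2 was at 10.75, 10.35, 10.70 and 10.52, and its probe set may also read the parent gene it was copied from. Commd1, a regulator of copper export that contains Zrsr1, was at 10.29, 10.13, 10.32 and 10.26. Gnas, the stimulatory G protein subunit with transcripts of either parental origin, was at 12.88, 12.92, 12.71 and 12.97, and its 5 probe sets ranged by at most 0.54.

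Among imprinted genes outside the larger clusters, Impact, Rasgrf1 and Inpp5f also lay lower in both DIO arrays, as did 17% of all genes. Impact, a translation regulator, was at 10.99, 10.96, 10.55 and 10.85, a difference of −0.28 ± 0.16 (limma, adjusted p = 0.761), and its other 2 probe sets did the same with −0.77 and −0.41. Rasgrf1, an activator of Ras, was at 6.07, 5.84, 5.57 and 5.66, a difference of −0.34 ± 0.15 (limma, adjusted p = 0.728). One of its 3 probe sets had the other sign, at 0.03. Inpp5f, an inositol phosphatase, was at 7.72, 8.05, 7.34 and 7.60, a difference of −0.41 ± 0.19 (limma, adjusted p = 0.733), with 1 of 3 probe sets at 0.02. Dcn, the collagen-binding proteoglycan decorin, was at 5.55, 7.65, 6.01 and 6.76. Its order was that of the mean of the 13 fibroblast and mesenchymal markers, at 7.06, 7.62, 7.07 and 7.28, though single markers such as Acta2 and Pdgfrb differed. The order was not particular to that list. The epidermal and epithelial markers averaged 8.74, 11.99, 9.43 and 9.96, and those of yolk sac and visceral endoderm 5.31, 6.65, 5.75 and 6.06. A link of Dcn to any of these lists was not tested. Nap1l5, a nucleosome assembly protein, was at 4.14, 4.05, 3.94 and 4.44.

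Genes that keep or erase imprints were described beside the members from a separate list. Of 27 measured, 0 passed in limma, and 1, Arid4a, had an unadjusted p below 0.05 (6.58% of all genes). A higher DIO mean was seen in 18 (53.3% of all genes) and a lower one in 9. The median difference was 0.16, which was −0.056 without control 2 and 0.33 without control 1. Of these, 8 had both DIO arrays above both controls (21.4% of all genes) and 2 below (17%), together close to the share over all genes. The range reached 1 unit in 4 of them (9.79% of all genes). Dnmt3l, the cofactor that sets imprints in germ cells, was at 10.78, 9.30, 11.14 and 10.03. Tet1, which oxidises methylated cytosine, was at 10.25, 9.08, 10.52 and 9.08, and Dppa3, which protects methylation in the zygote, at 9.50, 8.84, 9.71 and 7.88. These 3 genes were higher in control 1 and DIO 1 than in control 2 and DIO 2, as was the mean of the pluripotency markers. Kdm1b, a histone demethylase needed for maternal imprints, was at 8.94, 8.40, 9.09 and 9.50. Zfp57, which holds methylation at imprinted control regions, was at 7.07, 6.22, 7.08 and 6.77, and its partner Trim28 at 12.10, 11.87, 12.25 and 11.96.

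A list of 28 further measured imprinted genes gave 0 past the threshold in limma and 3 at an unadjusted p below 0.05 (6.58% of all genes). The DIO mean was higher in 10 (53.3% of all genes) and lower in 18. The median was −0.12, which was 0.027 without control 1 and 0.0095 without control 2. In 6 of them the DIO arrays were the upper pair (21.4% of all genes) and in 4 the lower pair (17%), together close to the share over all genes. The range reached 1 unit in 8 of 28 (9.79% of all genes). Control 2 was high for Cpa4, a carboxypeptidase, at 4.37, 8.10, 4.68 and 5.66, and for the paraoxonase neighbours Pon3 at 5.16, 7.45, 5.24 and 5.42 and Pon2 at 8.14, 10.08, 8.87 and 8.73. It was also highest for the chloride channel Ano1 at 7.24, 8.66, 7.45 and 7.62, for Dlx5 at 4.08, 5.36, 4.06 and 4.47 and for Cobl at 6.86, 7.49, 7.20 and 6.12. Ampd3, an AMP deaminase, was at 7.19, 7.96, 6.28 and 6.37, lower in both DIO arrays. Xist, the noncoding RNA of X inactivation, was at 7.52, 6.29, 6.36 and 6.61.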

How the data were processed

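Expression was measured on Affymetrix 3′ arrays in 4 samples, 2 control and 2 DIO, grouped by their titles. The authors deposited log2 expression levels, 1 per probe set, between 2.59 and 14.56. The scale was taken from the values, and the normalization and summary method stay unknown. The number of arrays limits the precision. Of 45101 probe sets, 64 manufacturer controls were left out, 34945 named 1 gene in the platform annotation, 932 named several and 9160 were not listed. Each of 18193 genes was represented by its brightest probe set, with no filter on dim ones. The fit used lmFit and eBayes of limma 3.58.1 (R 4.3.3), with Benjamini-Hochberg adjustment over all genes and a threshold of 0.05. The fit was tested on simulated data. Joint probe sets were described and not tested. All measured members were named, and a difference with its SE is given where both DIO arrays lay on one side of both controls. The members and lists were chosen with earlier results of these data known. Alternatives were quantile normalization, centring, averaged probe sets, a filter on dim genes, another eBayes, a replicate block, every probe set, and each array left out. The split by parental allele and the alternatives for it and for the 2 further lists were added after the data were seen. The titles' mouse numbers are shared between groups but name different animals. Start windows came from RefSeq (GRCm38.p6). Member windows on 1 chromosome were left out before counting, which the windows of all genes include, and 42 of the 50 members then had a window.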

Additional observations from a re-analysis of the deposited data

How the results depend on the processing

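None of the 17 differences given for single members changed sign under any alternative run. Much of this was fixed by their choice. With both DIO arrays on one side of both controls, leaving out an array could not turn the sign. The other eBayes and the replicate block use the same difference. The run on every probe set was not read for single members, and 5 of the 17 had a probe set of the other sign. Under the alternatives 163 values of these members kept their side of the threshold. The 2 exceptions, Airn and Nnat, passed without control 1, as did 2.65% of all genes. Over all genes the count past the threshold was 0 in limma under each alternative but 1, and between 0 and 483 when an array was left out, with 483 without control 1, where control 2 is the only control. Without adjustment 1198 genes had p below 0.05, of which 594 had the higher and 604 the lower mean in DIO. The split was 768 and 472 after quantile normalization and 724 and 501 after centring. With every probe set tested, 4184 of 45037 had an unadjusted p below 0.05. Left-out arrays moved the members' median difference between −0.12 and 0.023, the count outside both controls between 29 and 35 (between 59.0% and 79.7% of all genes, as 3 arrays separate more easily), the count with a range of 1 unit between 4 and 12 and the count with 1 array apart between 2 and 8. For maternally expressed members below both controls they gave between 4 and 7, where all genes gave between 25.4% and 42.3%. The median of the imprint-keeping genes moved between −0.056 and 0.33, that of the paternally expressed members between −0.34 and −0.20 and that of the further imprinted genes between −0.13 and 0.027. Averaging probe sets left 3 members with 1 array apart and put the median of the paternally expressed members at −0.17 and of the further list at −0.10. Without the dimmest 40% of genes the medians were −0.079 for members, −0.39 for the paternally expressed ones and −0.18 for the further list, which was at −0.065 after quantile normalization and −0.089 after centring. The cause of these shifts was not tested. With the mouse number as a replicate block, 0 genes passed in limma and 982 had an unadjusted p below 0.05. Same-numbered arrays deviated together with a correlation of 0.33 across genes, but with 2 pairs of different animals the numbers do not pair the samples. No group held enough arrays to look for outlying samples.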
